A study of Mus musculus with 6 samples.

Results

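Mesenchymal transition factors, cadherins and 2 structural markers of the mesenchymal state were followed in ADC106 cells, a mouse angiosarcoma line, after delivery of an miR-497 mimic. They were chosen by name, as the rows whose mouse Ensembl identifier carries the symbol Snai1, Snai2, Twist1, Twist2, Zeb1, Zeb2, Vim, Cdh2, Cdh11 or Fn1, which gave 10 of the 55401 identifiers in the count table. All 10 passed the filter on low counts that left 14661 genes in the test. Angiosarcoma is a malignant tumour of cells that line vessels. The control group, with genotype WT in the labels, received a mimic called NC, and the other group, labelled as overexpressing miR-497, received the miR-497 mimic. Both groups were the same line, both mimics were used at 12.5 nM, and RNA was taken on day 3. Each group had 3 poly(A)-enriched libraries with totals between 25777676 and 36159499 counts. ADC106 is a single cell line, and nothing in the labels says whether libraries came from separate cultures, so p-values here measure the spread between these libraries, which may be technical.

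Snail (Snai1, Snai2) and Zeb (Zeb1, Zeb2) proteins are zinc-finger repressors that bind E-box sequences, and Twist proteins are basic helix-loop-helix factors that pair with E proteins at such boxes. In epithelia they silence E-cadherin and other junction genes, and in endothelium related changes are called endothelial-to-mesenchymal transition. Vim encodes the intermediate filament vimentin, Cdh2 and Cdh11 encode the adhesion receptors N-cadherin and cadherin-11, and Fn1 encodes fibronectin, a matrix glycoprotein read by integrins. Endothelial cells normally carry vimentin, fibronectin and N-cadherin, so these genes are not foreign to the line.

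A microRNA guides Argonaute to transcripts that pair with its seed, bases 2 to 8. The mature sequence of miR-497-5p and of a relative from the same cluster are shown because they share the seed against which the 10 transcripts were searched; capitals mark the seed. Both come from RefSeq on GRCm38.p6, where miR-497a-5p lies at chr11:70234730-70234751 and miR-195a-5p at chr11:70235062-70235082, both on the plus strand.
mmu-miR-497a-5p: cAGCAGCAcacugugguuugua
mmu-miR-195a-5p: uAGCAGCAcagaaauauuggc

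In the longest annotated 3' UTR of each gene, 3 of the 10 genes held a 7mer or 8mer for this seed (TGCTGCT or GCTGCTA, read on the transcript strand), and 28.1% of the 12859 tested genes with a 3' UTR did so. Twist2 held TGCTGCT at bases 1230 to 1236 of 1885, Cdh11 held it at bases 942 to 948 of 2219, and Zeb1 held the 8mer TGCTGCTA at bases 493 to 500 of 2401. Snai1 held only the 6mer GCTGCT, at bases 227 to 232 of 731, and Twist2 held a further 6mer. The other genes, Snai2, Twist1, Zeb2, Vim, Cdh2 and Fn1, held none of these words there. The sites of Twist2, Cdh11 and Snai1 are printed with their flanks from the GENCODE M21 transcripts, with the matching bases in capitals.
Twist2: aatatcttgaaagtTGCTGCTgtggcc
Cdh11: gatctgttgtagtcTGCTGCTctcatt
Snai1: agcctctggacacaGCTGCTtcgagc

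Snai2, Zeb2, Cdh2, Cdh11 and Fn1 rose with miR-497, by 1.26-fold to 1.79-fold, and none of the 10 genes fell in the test. The 5 higher genes stand against 23.8% of all tested genes called higher, and the 0 lower genes against 26.0% called lower. Genes were called at an adjusted p under 0.05 from the quasi-likelihood test of edgeR, adjusted over all 14661 genes by Benjamini-Hochberg. At an unadjusted p under 0.05, 1 member, Twist1, was lower; limma voom called 1 member lower and DESeq2 called 0. Called in either direction were 49.8% of all genes, so a call by itself was common in this comparison. No member changed by 2-fold or more. The median log2 fold change of the 10 genes was 0.23, against -0.02 over all tested genes. Libraries of the groups did not overlap for 6 members, all 6 higher with miR-497 and 0 lower. Over all tested genes, 57.4% did not overlap, 27.8% as higher and 29.6% as lower.

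**Figure D1:**
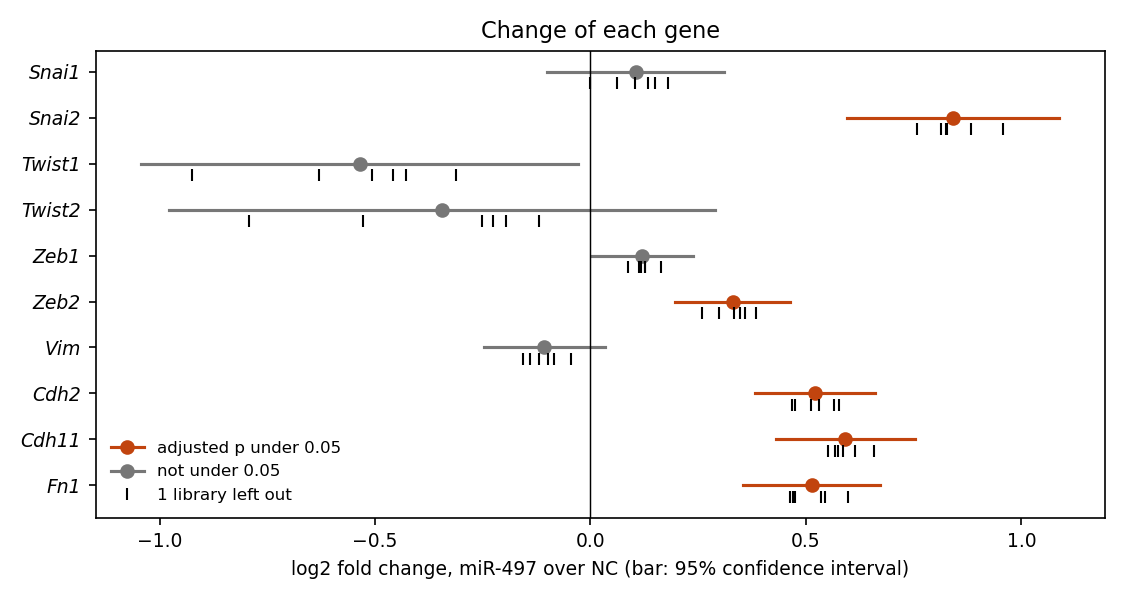
Log2 fold change of each gene, miR-497 over NC, with its 95% confidence interval (bar) and the value when each library in turn was left out (ticks below). The intervals of Snai2, Zeb2, Cdh2, Cdh11 and Fn1 lie above 0, those of Zeb1 (above) and Twist1 (below) also leave out 0 although their adjusted p is over 0.05, and the ticks of Twist1 and Twist2 spread most widely.

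Within the Snail pair, only Snai2 passed the test. Snai2 (ENSMUSG00000022676, chr16:14705852-14709385, plus strand), which encodes Slug and is expressed in neural crest and many mesenchymal cells, stood at 9.56, 11.0 and 8.28 CPM in NC libraries 1 to 3 and at 17.95, 16.3 and 17.6 CPM in miR-497 libraries 1 to 3. CPM is the count divided by the TMM-scaled library size and given per 1e+06. All 3 miR-497 values lay above all 3 NC values. Its log2 fold change of 0.84 (SE 0.116, 95% confidence interval 0.60 to 1.09, edgeR adjusted p = 1.2e-05) was the largest of the 10 genes. Snai1 (ENSMUSG00000042821, chr2:167538195-167542814, plus strand), which encodes Snail itself, stood at 22.1, 20.5 and 22.8 CPM with NC and at 26.9, 22.5 and 20.97 CPM with miR-497. These groups overlapped, and the change of 0.10 on the log2 scale (SE 0.0973) did not pass (edgeR adjusted p = 0.40). Its interval ran from -0.10 to 0.31, which leaves out a rise of the size seen for Snai2.

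Neither Twist gene passed the test, and both were low and uneven. Twist1 (ENSMUSG00000035799, chr12:33957671-33959829, plus strand), a regulator of cranial and limb mesenchyme, stood at 7.18, 6.63 and 5.43 CPM with NC and at 6.65, 3.78 and 2.99 CPM with miR-497. The first miR-497 library lay among the NC values and the other two lay below them. The log2 fold change was -0.54 (SE 0.240, interval -1.04 to -0.03, edgeR adjusted p = 0.075). Without miR-497 replicate 1 it was -0.92 with an adjusted p of 0.002, without NC replicate 3 it was -0.63 with an adjusted p of 0.044, and over the 15 alternatives tried the edgeR, DESeq2 or voom adjusted p ran from 0.002 to 0.28. Twist2 (ENSMUSG00000007805, chr1:91801461-91848028, plus strand), its paralog with a role in dermal mesenchyme, had 61 to 158 counts per library, at 4.31, 4.33 and 2.66 CPM with NC and 4.66, 2.36 and 2.00 CPM with miR-497. Again the first miR-497 library was the high one, and it exceeded every NC library. The log2 fold change was -0.34 (SE 0.299, interval -0.98 to 0.29, edgeR adjusted p = 0.36), and without miR-497 replicate 1 it was -0.79 (edgeR adjusted p = 0.035). An opposite-strand gene, Gm29100, covers 46.5% of the exon bases of Twist2, which makes its counts uncertain because the strand setting is not given in the sources used here.

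Of the Zeb genes, Zeb2 passed the test and Zeb1 did not. Zeb2 (ENSMUSG00000026872, chr2:44983632-45117395, minus strand), a repressor that also acts in neural crest and glial development, stood at 76.7, 85.6 and 89.2 CPM with NC and at 104.7, 109.9 and 101.3 CPM with miR-497. The groups did not overlap, and the log2 fold change was 0.33 (SE 0.0635, interval 0.20 to 0.46, edgeR adjusted p = 0.00035). Zeb1 (ENSMUSG00000024238, chr18:5591860-5775467, plus strand), the more abundant paralog and the only member with an 8mer, stood at 151.2, 133.5 and 137.7 CPM with NC and at 154.9, 152.3 and 152.1 CPM with miR-497. Every miR-497 value was above every NC value, with 152.1 against 151.2 CPM at the closest. The log2 fold change of 0.12 (SE 0.0554, interval 0.003 to 0.24) had an edgeR adjusted p of 0.081. Zeb1 came under 0.05 in 6 of 15 alternatives, among them that without NC replicate 1 (adjusted p = 0.033), with adjusted p-values from 0.017 to 0.34 and a positive change in all 15.

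Both mesenchymal cadherins rose, and their intervals overlapped. Cdh2 (ENSMUSG00000024304, chr18:16588877-16809246, minus strand) stood at 65.7, 70.7 and 73.5 CPM with NC and at 106.8, 101.5 and 92.8 CPM with miR-497. N-cadherin, its product, joins endothelial cells to pericytes and neurons to each other. Cdh2 changed by 0.52 on the log2 scale, or 1.44-fold (SE 0.0657, interval 0.38 to 0.66, edgeR adjusted p = 5e-06). Cdh11 (ENSMUSG00000031673, chr8:102632095-102785642, minus strand), a type II cadherin of osteoblasts and fibroblasts, stood at 27.6, 28.1 and 26.3 CPM with NC and at 42.6, 43.5 and 37.5 CPM with miR-497. It changed by 0.59, or 1.51-fold (SE 0.0760, interval 0.43 to 0.75, edgeR adjusted p = 6e-06), and its 3' UTR carries the 7mer printed above. Neither gene's groups overlapped.

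Of the abundant structural genes, Fn1 rose and Vim did not pass the test. Fn1 (ENSMUSG00000026193, chr1:71585520-71653200, minus strand) stood at 5902, 5847 and 6811 CPM with NC and at 8563, 9450 and 8482 CPM with miR-497. The groups did not overlap, and the log2 fold change was 0.51, or 1.43-fold (SE 0.0747, interval 0.36 to 0.67, edgeR adjusted p = 2.2e-05). Vim (ENSMUSG00000026728, chr2:13573927-13582826, plus strand) stood at 3359, 3561 and 3463 CPM with NC and at 3429, 3265 and 2941 CPM with miR-497. The first miR-497 library lay inside the NC range, and the log2 fold change was -0.11 (SE 0.0663, interval -0.25 to 0.03, edgeR adjusted p = 0.19). That interval leaves out changes of the size seen for Fn1 in either direction.

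Levels of different genes are compared here as CPM per kilobase of exon, over the merged exons of all annotated transcripts of a gene. That length can exceed the length of the transcripts expressed, which was not measured. It was 4743 bases for Vim, 11685 for Fn1, 10266 for Zeb1 and 19942 for Zeb2. For Snai1, Snai2 and Twist1 it was 1621, 2021 and 1628 bases. Orders between genes, ratios and shares hold only for these lengths. With NC, Vim was the highest at 729.6 ± 21.3 and Fn1 followed at 529 ± 46.3 CPM per kilobase (SD, n = 3). With miR-497 that order was the other way round, with Fn1 at 756 ± 45.97 and Vim at 677 ± 52.4 CPM per kilobase. Within each group the libraries of these genes did not overlap, with 725.9 against 723.0 at the closest with miR-497. The order depends on the lengths. In CPM without division by length, Fn1 led Vim in both groups, at 6186 against 3461 with NC and 8832 against 3212 with miR-497. Both lay at the 99.8th percentile of tested genes by mean level per kilobase. The 6 factors were far lower. Zeb1 at 13.7 ± 0.902 and Snai1 at 13.4 ± 0.748 CPM per kilobase overlapped with NC and led the factors in both groups. Next with NC came Cdh2 at 8.67 ± 0.485, then Snai2 at 4.76 ± 0.677, Zeb2 at 4.20 ± 0.322 and Twist1 at 3.94 ± 0.548 CPM per kilobase, the last 3 of which could not be ordered because neighbours overlapped. Cdh11 at 3.07 ± 0.101 and Twist2 at 1.19 ± 0.301 CPM per kilobase were lowest with NC. With miR-497, Snai2 at 8.56 ± 0.430 CPM per kilobase stood clear of Zeb2 at 5.28 ± 0.217, and Cdh11 at 4.63 ± 0.365 stood above Twist1 at 2.75 ± 1.18.

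**Figure D2:**
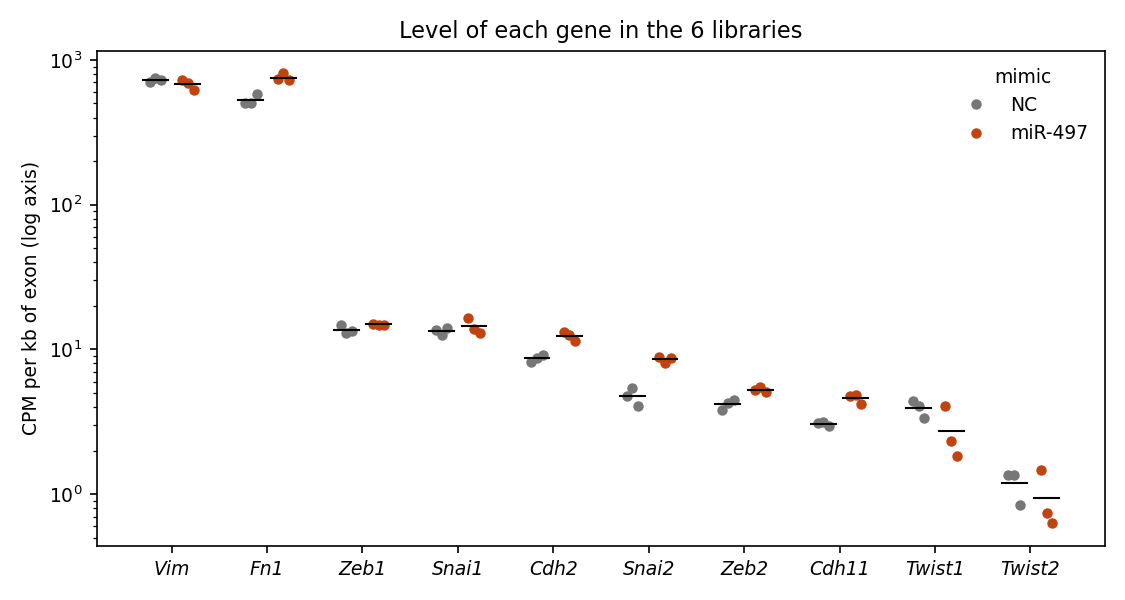
Level of each gene in CPM per kilobase of exon on a log axis, with a point for each of the 3 NC and 3 miR-497 libraries and a line at the group mean. Vim and Fn1 lie far above the other 8 genes, and the miR-497 points of Twist1 and Twist2 are the most spread.

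Ratios within a library need no scaling between libraries, and 4 of them were compared. The size of each ratio depends on the exon lengths given above, whereas its difference between groups on the log2 scale does not. The log2 ratio of Snai1 to Snai2, per kilobase, was 1.52, 1.21 and 1.78 with NC and 0.90, 0.78 and 0.57 with miR-497. Snai1 thus outweighed Snai2 by 2.84-fold with NC and 1.68-fold with miR-497, with no overlap of the libraries (difference -0.76, exact permutation test, 2-sided, p = 0.1, adjusted p = 0.2 over 4 ratios). The smallest p that 3 against 3 libraries allow is 0.1, so no ratio could pass the threshold. For Zeb1 to Zeb2 the ratio was 3.27-fold with NC and 2.83-fold with miR-497 (difference -0.21 on the log2 scale, exact permutation p = 0.1, adjusted p = 0.2), again without overlap. The ratio of Twist1 to Twist2 differed by -0.20 (exact permutation p = 0.2, adjusted p = 0.267) and that of Cdh2 to Cdh11 by -0.07 (exact permutation p = 0.4, adjusted p = 0.4), and both overlapped between groups.

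**Figure D3:**
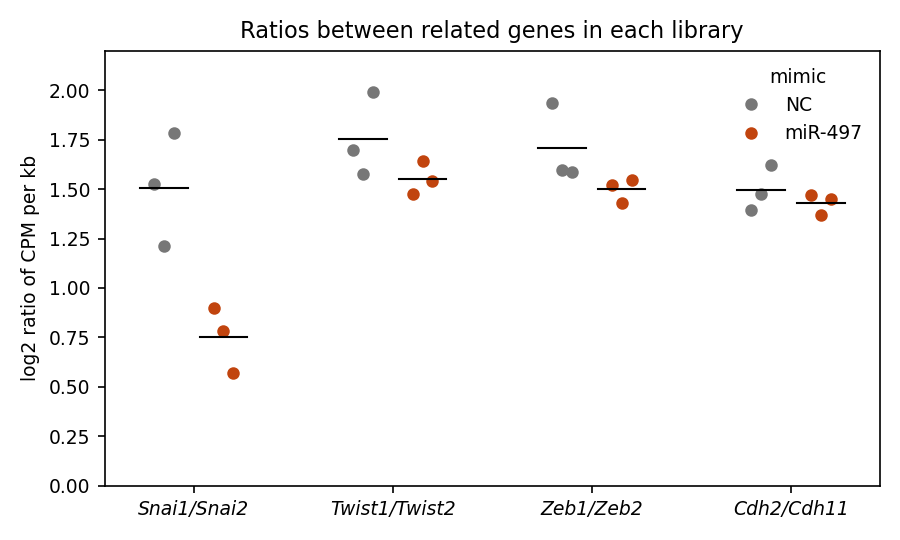
Log2 ratio of CPM per kilobase between related genes, with a point per library and a line at each group mean. The Snai1 to Snai2 points lie at 1.21 or more with NC and at 0.90 or less with miR-497, while the Cdh2 to Cdh11 points of the groups overlap.

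Cdh2 and Cdh11 were minor cadherins next to Cdh5, which encodes VE-cadherin, the defining cadherin of endothelium. Cdh5 took 96.6% ± 0.169 of the summed CPM per kilobase of 19 cadherin genes with NC and 96.1% ± 0.0531 with miR-497 (SD, n = 3). Cdh2 took 1.62% ± 0.0353 and 2.02% ± 0.115, and Cdh11 0.576% ± 0.0428 and 0.751% ± 0.0449. Of 17 other cadherin genes listed, 9 were tested, 3 rose and 1 fell, with a median log2 fold change of 0.20. Cdh5 itself rose by 0.20 (edgeR adjusted p = 0.011, and 0.00027 to 0.096 over its alternatives), from 2169 ± 104 to 2484 ± 49.4 CPM (SD, n = 3), and without NC replicate 2 it did not pass (adjusted p = 0.096). Cdh13, the membrane-anchored T-cadherin, stood at 43.3 ± 6.76 and 47.1 ± 3.33 CPM and did not pass (edgeR adjusted p = 0.30, and 0.045 without NC replicate 1), nor did Cdh24, at 4.51 ± 1.06 and 3.19 ± 1.30 CPM (adjusted p = 0.14, and 0.0099 without miR-497 replicate 3). Among rarer cadherins, Cdh6 rose from 1.66 ± 0.0794 to 5.15 ± 0.846 CPM (edgeR adjusted p = 1.2e-05) and Cdh18 from 2.75 ± 0.0661 to 4.56 ± 0.0800 CPM (adjusted p = 0.0058). Cdh10 fell from 20, 12 and 10 counts with NC to 0, 1 and 1 counts with miR-497 (edgeR adjusted p = 0.00079), and it was the 1 lower gene of this list. It passed the filter on low counts only through its NC libraries. A lower call was then close to fixed in advance, and no conclusion is drawn from it. Cdh1, the E-cadherin gene that Snail and Zeb proteins repress in epithelia, had 1, 4 and 8 counts with NC and 10, 14 and 11 with miR-497 (edgeR adjusted p = 0.069, and 0.026 without NC replicate 3), and it was named after its values were seen. Cdh1 passed the filter only through its miR-497 libraries, so no conclusion is drawn from its test either.

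Cadherin tails bind catenins, and 11 of 13 catenin and junction-linker genes were tested. Of these, 5 rose and 4 fell, and the median log2 fold change was 0.17. Ctnnb1, which encodes beta-catenin, rose by 0.24 (edgeR adjusted p = 0.0016), the plakoglobin gene Jup by 0.28 (adjusted p = 0.00023), and Pkp4, an armadillo protein of the p120 group, by 0.29 (adjusted p = 0.00014). Ctnna1, for alpha-catenin, did not pass, at 668 ± 39.3 and 696 ± 14.3 CPM (edgeR adjusted p = 0.41). Vcl, the vinculin gene, fell by 0.49 on the log2 scale (edgeR adjusted p = 1.3e-05). Nectin2, for an immunoglobulin-like adhesion receptor, fell by 0.74 (edgeR adjusted p = 7.1e-09).

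Partners of the 6 factors moved in both directions. Of 21 genes for binding partners, corepressors and related regulators, 18 were tested, 6 rose and 3 fell, with a median log2 fold change of -0.05. Tcf3, which encodes the E proteins E12 and E47 that pair with Twist, rose by 0.56 (edgeR adjusted p = 2.4e-07), from 85.2 ± 2.40 to 126 ± 5.13 CPM (SD, n = 3). The corepressor scaffold Sin3a rose by 0.60 (adjusted p = 3.8e-05) and the histone demethylase Kdm1a, a cofactor of Snail, by 0.37 (adjusted p = 5.2e-05). Id1 and Id3, which encode dominant-negative binders of E proteins, fell by 0.17 and 0.23 on the log2 scale (edgeR adjusted p = 0.019 and 0.0019). The call of Id1 was lost with upper-quartile scaling (adjusted p = 0.062), without NC replicate 2 (0.099) and without miR-497 replicate 3 (0.074). Hdac1, a deacetylase of these repressor complexes, stood at 185 ± 9.89 and 175 ± 3.79 CPM and did not pass (edgeR adjusted p = 0.20). Snai3, Foxc2 and Gsc were listed at 0 in all 6 libraries.

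Snail and Zeb proteins are also set by phosphorylation and ubiquitin ligases, which RNA counts do not measure. Of 11 such genes, 9 were tested, 1 rose and 2 fell, and the median log2 fold change was -0.19. Btrc, which encodes the ligase subunit that recognises phosphorylated Snail, fell by 0.74 on the log2 scale, from 37.8 ± 3.78 to 22.7 ± 1.10 CPM (SD, n = 3, edgeR adjusted p = 1.5e-06). Fbxl5, another ligase subunit reported to act on Snail, fell by 0.23 (edgeR adjusted p = 0.0092, and 0.0052 to 0.077 over its alternatives). Gsk3b, the kinase that marks Snail for Btrc, rose by 0.15 (edgeR adjusted p = 0.021), a call lost in 6 of 15 alternatives, such as those without NC replicate 1 or 2 and without miR-497 replicate 1 or 2 (adjusted p from 0.0021 to 0.12). Fbxo11 and Fbxo45 stood at 79.1 ± 3.47 and 87.2 ± 6.21 CPM with NC and at 86.8 ± 4.03 and 81.5 ± 2.72 CPM with miR-497, and neither passed (edgeR adjusted p = 0.075 and 0.22), although Fbxo11 did in 6 of 15 alternatives (adjusted p from 0.0033 to 0.26), among them those without NC replicate 3 and without miR-497 replicate 1. Fbxl14 and Fbxw7 were listed at 0 in all 6 libraries. Fbxw7 is broadly expressed in most tissues, so a listed 0 in this table need not mean absence.

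Genes around vimentin and fibronectin were also mixed. Of 11 other intermediate filament and linker genes, 9 were tested, 2 rose and 4 fell, with a median log2 fold change of -0.25. Among the 4 is Ina, added after its values were seen, with 33, 27 and 23 counts with NC and 6, 11 and 8 with miR-497. Ina could not have passed the filter on low counts without its NC libraries. Its lower call is therefore not read as a result, and it counts in that median. Nefm, a neurofilament gene, rose by 1.65 (edgeR adjusted p = 8.9e-09), from 7.93 ± 1.36 to 24.97 ± 2.11 CPM, and the lamin gene Lmna by 0.33 (adjusted p = 5.2e-05). Nefm covers 32.8% of the exon bases of Nefl on the opposite strand, and Nefl was listed at 0. With the strand setting not given, the counts of Nefm are uncertain. Lmnb1, for lamin B1, fell by 0.41 on the log2 scale (edgeR adjusted p = 3.9e-05), and Nes, which encodes nestin, a partner of vimentin, stood at 424 ± 18.4 and 455 ± 13.1 CPM (adjusted p = 0.13, and 0.017 to 0.45 over its alternatives). Of 16 fibronectin receptor and matrix partner genes, all tested, 6 rose and 4 fell, with a median of 0.06. Tns3 and Tns1, which encode tensins that tie integrins to fibrillar adhesions, rose by 1.67 and 0.58 (edgeR adjusted p = 3.1e-13 and 5.8e-08). The matrix genes Sparc and Thbs1 fell by 0.86 and 0.35 on the log2 scale (edgeR adjusted p = 1.2e-08 and 0.0001), while the integrin subunit gene Itgb1 stood at 1670 ± 43.9 and 1684 ± 107 CPM (adjusted p = 0.89). Itga5, whose product pairs with that of Itgb1 as the main fibronectin receptor, is added after its values were seen. It fell by 0.55 on the log2 scale (edgeR adjusted p = 2.2e-07), from 708 ± 22.9 to 483 ± 12.8 CPM, in the libraries in which Fn1 rose.

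Of 18 other mesenchymal genes, 16 were tested, 9 rose and 4 fell, and the median log2 fold change was 0.28. S100a4, a calcium-binding protein often used as a fibroblast marker, rose by 1.48 (edgeR adjusted p = 3.3e-09), Mmp14, a membrane-bound collagenase, by 1.23 (adjusted p = 2.4e-09) and the collagen gene Col1a2 by 1.15 (adjusted p = 4.4e-10). The galectin gene Lgals1 rose by 0.18 (edgeR adjusted p = 0.029). The call of Lgals1 was lost in 6 of 15 alternatives, including those without NC replicate 1, NC replicate 3 or miR-497 replicate 1 (adjusted p from 0.0051 to 0.22). The 4 genes that fell lie outside the naming rule and are added after their values were seen. The fibrillar collagen gene Col3a1 fell by 0.79 on the log2 scale (edgeR adjusted p = 1.9e-05) and Loxl2, for a collagen cross-linking enzyme, by 0.73 (adjusted p = 4.6e-07). Thy1 and Pdgfrb, surface markers of fibroblasts and of mural cells, fell by 0.47 and 0.37 (edgeR adjusted p = 0.0057 and 0.005), and without miR-497 replicate 3 by 0.29 and 0.25 (adjusted p = 0.014 and 0.021). The summed level of the list was 1048 to 1115 CPM with NC and 1323 to 1575 CPM with miR-497.

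**Figure D4:**
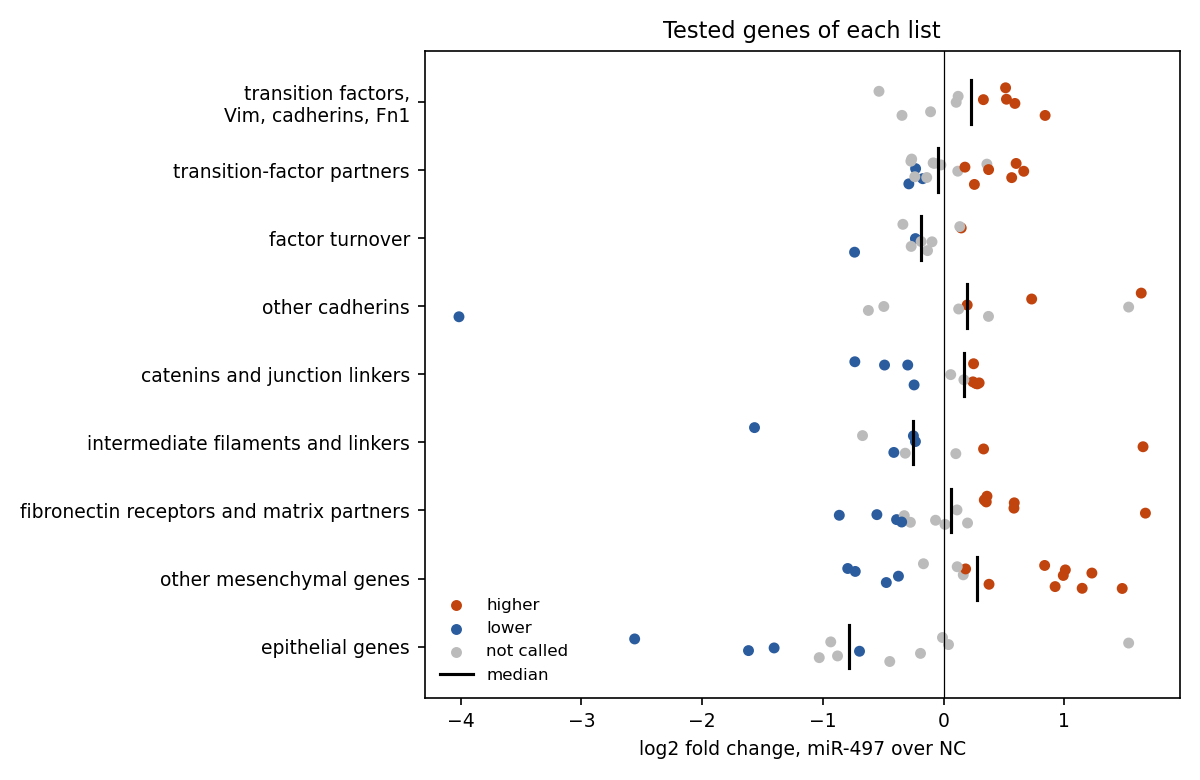
Log2 fold change of every tested gene in each list, miR-497 over NC, coloured by the test at an adjusted p of 0.05, with the list median as a black line. The medians run from -0.79 for epithelial genes to 0.28 for other mesenchymal genes, and each list plotted, apart from the epithelial genes and the 10 members, holds both higher and lower genes. The epithelial median includes genes that could not have passed the filter on low counts without their NC libraries, so no conclusion is drawn from it.

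Epithelial genes were low in sum. Of 26 listed, 12 were tested, 4 fell and 0 rose in edgeR's test, with a median log2 fold change of -0.79, and the summed level of all 26 was 15.6 to 28.9 CPM per library. At an unadjusted p under 0.05, 1 gene of the list, Cdh1, was higher; limma voom called 1 higher and DESeq2 called 0. The count of lower genes was 2 in DESeq2, 3 in limma voom and 1 among genes with a mean count of at least 50. Spint1, a serine protease inhibitor, had 69, 74 and 64 counts with NC and 13, 18 and 0 with miR-497 (edgeR adjusted p = 0.0013, and 0.056 in DESeq2). Grhl2, an activator of epithelial junction genes, had 14, 19 and 19 counts with NC and 5 in each miR-497 library (edgeR adjusted p = 0.021), and it passed in 9 of 14 alternatives, though not without NC replicate 2 or 3 or miR-497 replicate 2 or 3. Grhl2 entered the test only through its NC libraries, because of the filter on low counts. Spint1, and Pkp3, Esrp2 and Dsp, added after their values were seen, could not have passed that filter without their NC libraries. Pkp3, another of the 4 lower genes, had 39, 25 and 12 counts with NC and 9, 12 and 4 with miR-497. The lower calls of Grhl2, Spint1 and Pkp3 are therefore not read as results. These genes and Cdh1, which passed only through its miR-497 libraries, count in the list median, so no conclusion is drawn from that median. Ocln, the gene of the tight junction protein occludin, which endothelial cells also express, fell by 0.70 on the log2 scale (edgeR adjusted p = 0.0089), from 6.41 ± 0.510 to 3.94 ± 1.15 CPM (SD, n = 3). Marveld2 and Krt19 stood at 9.39 ± 1.12 and 2.34 ± 1.05 CPM with NC and at 9.36 ± 0.864 and 2.43 ± 1.08 CPM with miR-497, and neither passed (edgeR adjusted p = 0.96 and 0.94).

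Markers of endothelium, the cell type of origin of this tumour, were abundant. All 12 were tested, with a summed level of 9969 to 10680 CPM with NC and 9647 to 10140 CPM with miR-497, and 7 rose and 4 fell. Pecam1 fell by 0.52 on the log2 scale (edgeR adjusted p = 2.7e-06), while Emcn and Cldn5 rose by 1.03 and 1.02 (adjusted p = 3.2e-10 and 4.4e-10). In bulk RNA, fewer cells of a type and less RNA per cell cannot be told apart. Of the fibroblast genes in the mesenchymal list, Lum was listed at 0 in all 6 libraries and Dcn had 0 to 4 counts per library. Others of that list were well detected: Col1a1, added after its values were seen, rose from 61.7 ± 1.69 to 110.4 ± 6.45 CPM (SD, n = 3, edgeR adjusted p = 7.4e-09), and Thy1 stood at 26.6 ± 0.740 CPM with NC and 19.2 ± 4.67 CPM with miR-497. Of 7 leukocyte markers, Cd3e was listed at 0 and Ptprc had 4 to 7 counts per library. Cd68, a lysosomal protein gene of that list, rose by 1.08 (edgeR adjusted p = 9.7e-07), from 8.26 ± 0.197 to 17.5 ± 2.39 CPM (SD, n = 3), and most of the summed leukocyte list, at 9.53 to 10.7 CPM with NC and 15.8 to 21.1 CPM with miR-497, was Cd68. The other tested leukocyte markers did not pass: Csf1r had a log2 fold change of -0.21 (edgeR adjusted p = 0.68), and Lyz2, with 3 to 33 counts per library, one of -1.73 (edgeR adjusted p = 0.051, under 0.05 in 7 of 14 alternatives, such as those without NC replicate 2 or miR-497 replicate 1, at 0.014 and 0.016). The median over the 3 tested leukocyte markers was -0.21. The part of these markers in the changes of the 10 genes was not tested.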

How the data were processed

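Per the submitters' processing notes, the tools were STAR 2.5.4b, featureCounts, Subread 1.6.1 and edgeR 3.32.1, and the genome build was GRCm38; their roles, the annotation release and the strand setting are not given in the sources used here. The authors deposited raw counts of reads per gene for 55401 identifiers, with no normalization. Symbols, exon lengths and 3' UTRs came from GENCODE M21 (GRCm38), which matched 55141 identifiers. Groups and replicate numbers came from the sample titles.

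Genes were filtered with filterByExpr (minimum count 10, minimum total 15), scaled by TMM and tested with the quasi-likelihood F-test of edgeR 4.0.16 in R 4.3.3, with group as the only term and Benjamini-Hochberg adjustment over all 14661 genes. The standard error was the log2 fold change over the square root of F. Ratios were compared by exact permutation of the 6 libraries. The fits were tested on simulated data. The 15 alternatives per gene were other scalings, filters, DESeq2 1.42.0, limma 3.58.1 voom, the replicate block, GC and length offsets, and leaving out each library.

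The 10 genes and all lists were chosen with earlier results of these data known. In each related list the named genes were the 3 with the highest level per kilobase and the 3 with the smallest p; genes at 0, those of the cell type markers and genes described as added were named besides. Some genes that this rule names are not reported here; they are counted in their lists. Libraries of a group correlated at 0.987 to 0.991 and no pair matched within sampling noise.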

Additional observations from a re-analysis of the deposited data

How the results depend on the processing

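For the 10 genes, 136 of 150 fits under an alternative gave the same sign and the same verdict as the reported fit. Snai2, Zeb2, Cdh2, Cdh11 and Fn1 were higher and past the threshold in all 15 alternatives, and Vim stayed short of it in all 15. The count of higher members was 5 or 6 and reached 6 where Zeb1 passed. The count of lower members was 1 in place of 0, through Twist1, with no filter on low counts, with limma voom, with the replicate block, and with that block plus GC and length offsets. With 1 library left out it lay between 0 and 2, and it was 2 without miR-497 replicate 1, the miR-497 library in which Twist1 and Twist2 were highest. For Snai1 those leave-one-out fits gave -0.0017 to 0.181, with the sign turned only without miR-497 replicate 1. The cause was not tested.

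The other named genes, apart from Ina, Pkp3, Esrp2 and Dsp, which were not followed here, gave the same sign and verdict in 761 of 818 fits. Signs turned for 3 genes whose changes were near 0. Marveld2 was at 0.0075 with DESeq2 size factors, 0.036 with upper-quartile scaling, 0.0072 in DESeq2, 0.063 with GC and length offsets, 0.068 with the block added, and -0.092 to 0.0576 with 1 library left out. Krt19 was at -0.0104 with limma voom and lay between -0.323 and 0.451 over its alternatives, and Itgb1 lay between -0.030 and 0.107. The counts of called genes over all related lists together lay between 53 and 60.

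Same-numbered libraries deviated from their group means with correlations of -0.119, -0.035 and -0.133, so the numbers were not taken as pairs. With the replicate block, Twist1 had a log2 fold change of -0.58 (edgeR adjusted p = 0.027) and no other member changed sides, while Gsk3b (adjusted p = 0.066), Cdh5 (0.069) and Lgals1 (0.06) no longer passed and Lyz2 (0.04) did. The block leaves the mean differences of the paralog ratios as they were.

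All genes called higher numbered 3029 to 4039 and lower 3247 to 3995 over all alternatives. Twist2 had 61 to 158 counts per library and the largest standard error of the 10 genes (0.299); the shares of depth and of spread between libraries in it were not separated.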

Other observations

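The make-up of the 6 factors, as shares of their summed CPM per kilobase, was led by Zeb1 and Snai1 in every library. These shares depend on the merged exon lengths used, 10266 bases for Zeb1 and 19942 for Zeb2 against 1621 for Snai1. Snai2 took 11.5% ± 1.64 with NC and 18.3% ± 1.33 with miR-497 (SD, n = 3), and Twist1 took 9.54% ± 1.09 and 5.74% ± 1.97. Zeb1 took 33.2% ± 1.32 and 31.9% ± 2.24, Snai1 32.6% ± 2.13 and 30.8% ± 1.45, Zeb2 10.2% ± 1.08 and 11.3% ± 0.983, and Twist2 2.87% ± 0.684 and 1.98% ± 0.770. In miR-497 libraries 1 to 3 the Twist1 share was 7.95%, 5.12% and 4.17%, against 10.3%, 9.98% and 8.29% in NC libraries 1 to 3.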
